A study of Mus musculus with 67 samples.

Results

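A group of 100 mouse transcripts that carry only a placeholder symbol, of the form Gm followed by a number or ending in Rik, was examined in preimplantation embryos. They were chosen from 8998 such symbols among the 26414 features listed. A symbol was eligible when its mean value in control morulae or control blastocysts was at least 10, which 766 were, and the list holds the 100 with the largest ratio of the higher of these means to the highest mean in control 2-, 4- or 8-cell embryos, with 1 added to each. Of the 100, 87 had their highest mean in control blastocysts and 13 in control morulae. The ordering therefore comes from the control libraries, and the rise from cleavage to morula or blastocyst in those libraries is a description of how the list was made. The log2 ratio ran from 7.98 for Gm12173 to 1.61 for Gm6548 at rank 100. Just inside the edge, Gm14661 had 1.66 and Gm12790 1.62. Just outside it, Gm12346 and Gm10557 both had 1.6.

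The series asks how visible light acts on embryos handled outside the body. C57BL/6 embryos, made by in vitro fertilisation from 6-week-old females and 10-week-old males, were kept dark (control) or lit as 2-cell embryos with 5000 lx for 6 h and returned to the dark (light). Each library held 1 dissociated cell amplified with SMART-seq2, a full-length poly(A) method. Control libraries numbered 7 (2-cell), 6 (4-cell), 4 (8-cell), 13 (morula) and 3 (blastocyst). Light libraries numbered 6 (2-cell), 8 (4-cell), 8 (8-cell), 6 (morula) and 6 (blastocyst). The labels do not say which cells came from the same embryo, so p-values measure the spread between cells. Recovered depth was 836011 to 8551674 reads per library, of which 54.0 to 89.3% lay on CT010467.1 and Gm42418, leaving 318177 to 2867034 reads for all other features. A value below is the authors' number, the read count of a feature divided by a factor for its library. The 19 trophectoderm markers summed to between 963 and 10836 in control blastocysts and between 4182 and 11287 in light blastocysts, against 135 to 345 in control 8-cell cells. The 11 inner cell mass markers summed to 1278 to 2863 in control blastocysts and 448 to 1234 in light blastocysts, without overlap. These sums overlapped on RPM (reads scaled to a fixed library total) computed without CT010467.1 and Gm42418. There they were 1744 to 5838 in control and 1572 to 2970 in light blastocysts. The trophectoderm sums, in contrast, stood apart on RPM, at 1963 to 14784 in control and 15087 to 20396 in light blastocysts. Y-linked transcripts reached 10 RPM in 0 of 3 control blastocysts and 0 of 13 control morulae. They did so in 6 of 6 light blastocysts and 1 of 6 light morulae. Cells of different embryo sex or lineage and the light treatment cannot be told apart in comparisons between these groups. In light cleavage cells Y-linked transcripts reached 10 RPM in 2 of 6 (2-cell), 8 of 8 (4-cell) and 3 of 8 (8-cell). Their detection thus also differed between light stages, and the part of embryo sex in the light stage comparisons below was not tested.

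In the mouse, the outer cells of the morula become trophectoderm, the epithelium that pumps fluid into the blastocyst and later forms placenta, while inner cells become the inner cell mass. Gata3 and Tfap2c belong to the transcription factors known for trophectoderm. Genomes also give rise to many transcripts with no assigned name at such times: antisense RNAs read from the other strand of a gene, fragments within introns, retrocopies of abundant mRNAs, and members of tandem gene families such as the KRAB zinc-finger genes. SMART-seq2 does not mark strand, so reads of a placeholder and of a gene on the opposite strand cannot be told apart where their exons overlap, and near-identical copies may share reads.

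Placed on GRCm38 with GENCODE M21, 99 of the 100 had a single location. GENCODE classed 26 of these as antisense, 21 as protein coding and 21 as TEC, its class for transcribed stretches still awaiting experimental proof. Among the 662 other eligible placeholders, TEC made up 6.5% against 21.2% of the list, and same-strand intronic position 4.98% against 18.2%. Processed pseudogenes were 5.05% of the list and 26.0% of the others. A protein-coding gene on the opposite strand was overlapped by 41.4% of the list and 50.9% of the others. Part of the TEC and intronic share comes from 1 place, the introns of Auts2, which hold 10 members.

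The sequence of the top-ranked placeholder, Gm12173, is shown because it heads the list. It is a 273-base unprocessed pseudogene of 1 exon on the minus strand at chr11:46646687-46646959 (GRCm38), 17698 bases from the nearest protein-coding start, that of Dppa1.

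Gm12173: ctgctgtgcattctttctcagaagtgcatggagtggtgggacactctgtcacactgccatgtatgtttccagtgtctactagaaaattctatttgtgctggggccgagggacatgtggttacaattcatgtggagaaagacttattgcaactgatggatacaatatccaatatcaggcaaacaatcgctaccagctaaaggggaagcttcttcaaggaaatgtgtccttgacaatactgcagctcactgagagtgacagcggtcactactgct

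Promoter windows, 250 bases before to 50 after the start, were found by symbol for 24 of the 100 in a RefSeq table of GRCm38.p6. Of these 24, 6 were among the members that rose in light blastocysts (below), and 3 of those 6 are shown because members that rise together may be asked for shared letters. Of the 6, Gm16559, 2310030G06Rik and 2010315B03Rik passed the filter on low values, given below, only through the light blastocysts. Their calls are a description. Capitals mark matches, on either strand, to GGAATG, a core bound by TEAD factors, or to AGATAA, a core bound by GATA factors. The first window lies at chr3:138306982-138307281 on the minus strand, the second at chr4:118527025-118527324 on the plus strand and the third at chr9:50746478-50746777 on the minus strand.
Gm16559: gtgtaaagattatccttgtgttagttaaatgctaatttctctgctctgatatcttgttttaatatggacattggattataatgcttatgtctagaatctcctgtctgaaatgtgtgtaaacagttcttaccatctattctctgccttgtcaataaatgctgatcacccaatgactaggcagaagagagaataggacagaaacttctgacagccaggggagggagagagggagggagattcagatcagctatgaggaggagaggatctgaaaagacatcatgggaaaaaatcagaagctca
2610528J11Rik: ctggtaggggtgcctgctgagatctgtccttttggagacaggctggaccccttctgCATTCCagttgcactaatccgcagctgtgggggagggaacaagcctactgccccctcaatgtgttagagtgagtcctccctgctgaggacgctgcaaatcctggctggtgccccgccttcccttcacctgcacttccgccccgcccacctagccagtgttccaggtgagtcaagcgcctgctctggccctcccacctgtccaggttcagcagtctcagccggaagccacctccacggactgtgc
2310030G06Rik: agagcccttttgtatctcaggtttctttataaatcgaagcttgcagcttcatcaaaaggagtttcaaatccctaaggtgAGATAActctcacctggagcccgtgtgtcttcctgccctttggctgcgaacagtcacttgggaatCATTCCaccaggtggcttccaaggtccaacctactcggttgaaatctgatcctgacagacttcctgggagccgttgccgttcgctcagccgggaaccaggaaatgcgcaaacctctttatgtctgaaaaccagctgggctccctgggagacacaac
GGAATG stood in 2 of the 6 windows and in 14.7% of the 32851 windows of the table. AGATAA stood in 2 of the 6 and in 11.2% of all, and GCCNNNGGC, the AP-2 core, in 0 of the 6 and in 16.6% of all. Over all 24 members, some with several windows, GGAATG stood in 8, AGATAA in 8 and GCCNNNGGC in 3, so matches were not particular to the members that rose. A match is a stretch of letters and says nothing about binding.

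**Figure D1:**
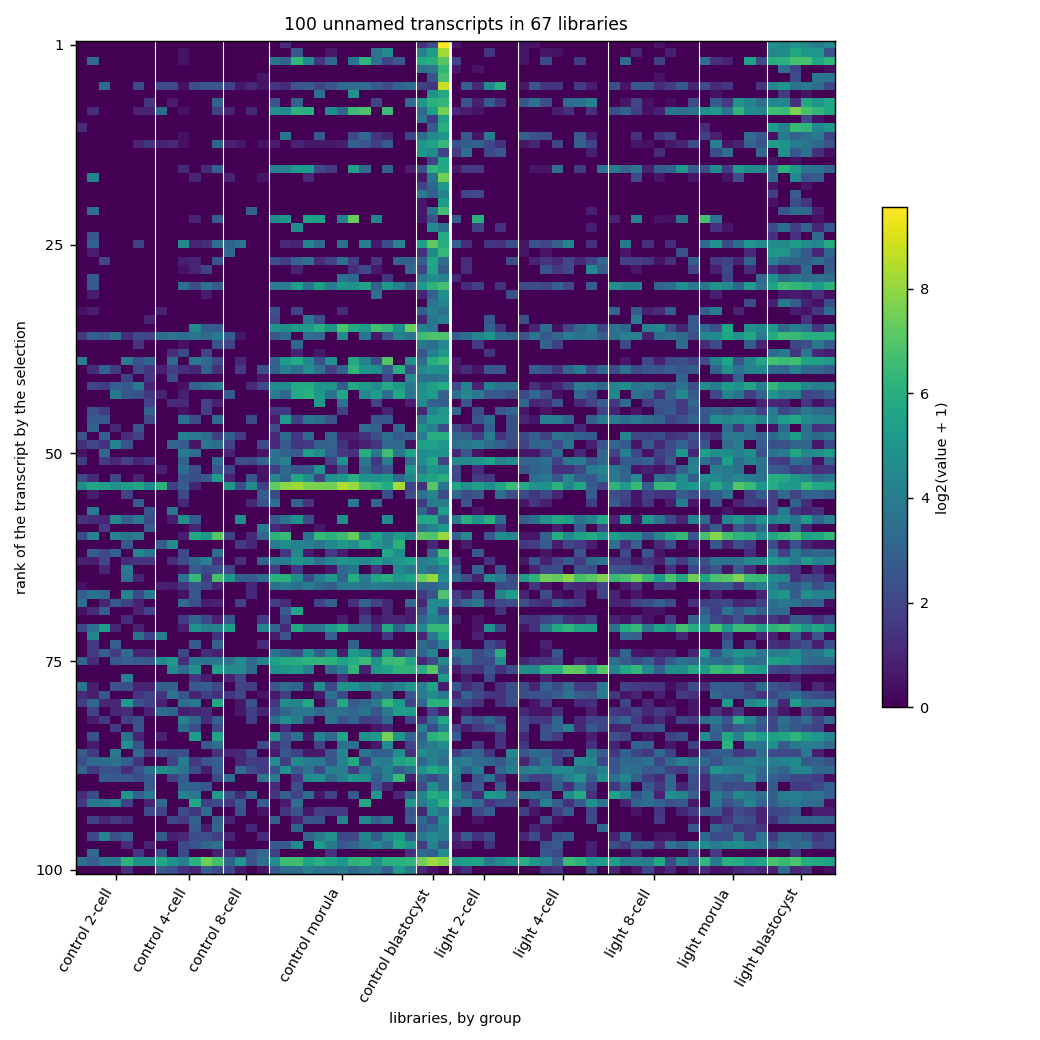
Log2(value + 1) of the 100 transcripts (rows, by rank from 1 at the top) in the 67 libraries (columns, by group, controls left of the thick line). Brightness is concentrated in the 3 control blastocysts, of which the last column is brightest for the top ranks, and the light blastocysts form a dimmer block.

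In control blastocysts the level of many members rested on 1 cell of the 3. Of the 87 blastocyst-peaking members, 54 were highest in control blastocyst 3, 28 in control blastocyst 2 and 5 in control blastocyst 1. For 56 of the 87, over 50% of the summed value of the 3 cells came from 1 cell, in 40 cases from control blastocyst 3. Only 30 of the 87 had a value of at least 10 in all 3 cells, and 59 exceeded the highest control cleavage mean in each of them. When control blastocyst 3 was left out of the selection, 70 of the 100 were chosen again, against 80 without control blastocyst 1 and 82 without control blastocyst 2.

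Summed over the 100, values were 1722, 3401 and 5605 in the 3 control blastocysts and ran from 1043 through a median of 1555 to 1988 in the 6 light blastocysts. The lowest control cell, at 1722, lay below the highest light cell. On RPM computed without CT010467.1 and Gm42418 the sums ran from 3511 through 4558 to 7648 in control and from 3593 through 3891 to 4107 in light. The groups overlapped on both scales, and the gap between their medians was smaller on RPM. The number of members with at least 1 read was 89 to 97 in control blastocysts, 76 to 89 in light blastocysts, 41 to 61 in control morulae and 51 to 72 in light morulae. Of the 100, 11 had no read in any control cleavage cell, and 2 had none in any light blastocyst.

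The light libraries did not take part in the choice of members, so whether the rise from cleavage recurs in them is a separate question. Across light libraries alone, 31 of the 91 members tested rose in blastocysts above each of the 2-, 4- and 8-cell stages, where the background was 3.48% of all 19503 genes tested. In light morulae 11 of the 91 rose above each cleavage stage, with a background of 1.57%. The calls are from limma on log2(value + 1), with Benjamini-Hochberg adjusted p below 0.05 and at least a 2-fold difference against each stage. The remaining 9 members were too low in the light libraries to be tested. Of the 91, 12 reached the filter on low values only through the blastocysts, so the filter itself favoured higher values there, and 10 of the 31 rises are theirs. The calls of those 10, among them Gm16559, Gm12173, Gm12169, C430049B03Rik, 2310030G06Rik and 2010315B03Rik, are a description. Among the 79 members tested without help of the blastocysts, 21 rose, and with no filter at all 31 of the 100 members did. The background above belongs to the main filter, and no share of all genes is given for these 2 counts. Of the 31, 29 peaked in control blastocysts and 2 in control morulae, and 7 members rose in both light stages. With the 9 untested members kept in view, 74 of the 100 had a light morula or blastocyst mean above every light cleavage mean, and 48 did so by at least 2-fold on value plus 1. No share of all genes is given beside these counts either, so they are a description.

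The 4 largest rises in light blastocysts were those of Gm26751, Gm16559, A230005M16Rik and Gm12173. Gm26751 (lincRNA, chr14:55864311-55874735, minus strand), opposite Nynrin, had 62.9, 67.8, 108, 108, 48.6 and 76.2 in the 6 light blastocysts and a median of 0 at each light cleavage stage. No cleavage cell, at most 9.63, reached any of the 6. The log2 difference to the nearest cleavage stage was 5.6 ± 0.66 (SE; limma, adjusted p = 2.4e-09). In light morulae it was 10.1, 1.57, 0.912, 0, 47.2 and 3.49, so only 1 morula came near the blastocyst level.

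Gm16559 (antisense, chr3:138281408-138307022, minus strand), whose promoter window is shown above, lies opposite Adh1, an alcohol dehydrogenase gene. Its values were 38.4, 18.4, 85.2, 74.3, 20.2 and 31.7 in light blastocysts, and 0 in every light 2-, 4- and 8-cell library. The smallest log2 difference was 5.28 ± 0.40 (limma, adjusted p = 3.9e-15), on a scale where 1 was added to each value. Gm16559 passed the filter on low values only through the light blastocysts, so this call is a description. In control blastocysts it had 0, 5.57 and 63.6, so control and light cells overlapped.

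A230005M16Rik (antisense, chr2:25705850-25709716, minus strand), opposite Bmyc, a paralogue of Myc, had 107, 88.8, 99.8, 46.4, 42.7 and 33.9 in light blastocysts. Its light 8-cell values did not exceed 3.99, so the groups did not overlap, and the difference to the 8-cell stage was 4.79 ± 0.56 on the log2 scale (limma, adjusted p = 1.8e-09). It had already risen in light morulae (3.79 to 47.1, median 19.5), by 2.89 ± 0.56 over the 8-cell stage (limma, adjusted p = 0.00028).

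2610528J11Rik (protein coding, chr4:118526999-118530228, plus strand) overlaps no other gene and has the second window above. It showed the largest rise in light morulae, with 22.8, 5.91, 51.1, 16.8, 60.6 and 37.5, while the 8 light 8-cell cells lay at 3.99 or below. The difference was 3.63 ± 0.61 (limma, adjusted p = 3.6e-05), and in light blastocysts, at 18.6 to 74.9, it was 4.25 ± 0.61 (limma, adjusted p = 2.3e-07). Over the 13 control morulae it ranged from 0 through a median of 17.6 to 185.

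The third-largest morula rise was Gm43011 (TEC), in an intron of Camk2d, a calcium-dependent kinase gene. It had 6.32, 2.36, 12.3, 4.67, 12.1 and 6.11 in light morulae and at most 1.67 in any light cleavage cell, a difference of 2.66 ± 0.49 (limma, adjusted p = 1.5e-05). Unlike the transcripts above it then fell: light blastocysts had 9.31 and 9.46 in 2 cells and 0 in 4.

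**Figure D2:**
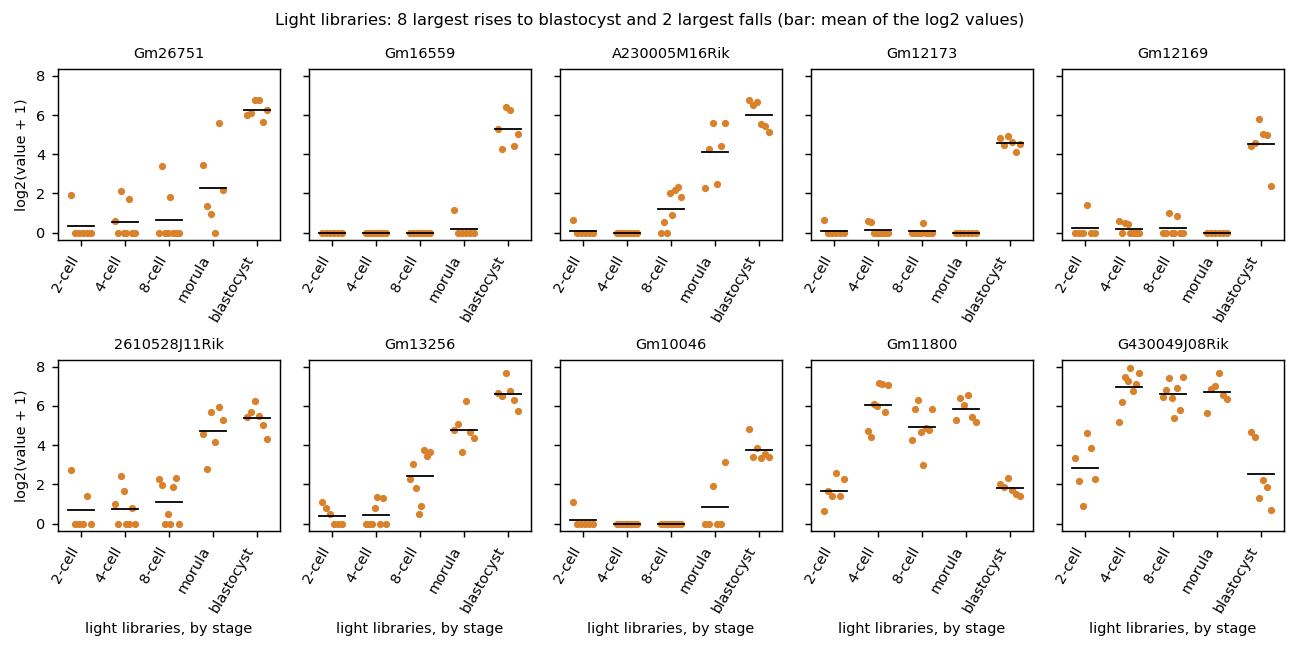
Log2(value + 1) in single light libraries (points) at 5 stages, with the mean of the log2 values as a bar. The first 8 transcripts are low at cleavage, though not always near 0, and higher in all 6 blastocysts. Gm13256, 1 of these 8, has a mean value of 6.05 at the 8-cell stage. Gm11800 and G430049J08Rik, the last 2, are high at the 4-cell, 8-cell and morula stages and low in blastocysts.

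The 2 smallest differences to cleavage were large falls. G430049J08Rik (TEC) had 24.1, 20.5, 1.43, 3.6, 2.58 and 0.64 in light blastocysts against a median of 145 in light 4-cell cells (lowest 35.8), a difference of -4.44 ± 0.54 (limma, adjusted p = 2.0e-09). Gm11800 (processed pseudogene, chr4:8118620-8119736) had 1.6 to 3.92 in light blastocysts and 20.2 to 143 in light 4-cell cells, a difference of -4.23 ± 0.49 (limma, adjusted p = 6.1e-10). In control, in contrast, 2 of 3 blastocysts were at 166 and 273 for G430049J08Rik and at 64.2 and 132 for Gm11800. Control blastocyst 3, at 24.4 and 7.71, was the low cell for both. Both resemble Gm49089, at 96.6% identity over the whole length of G430049J08Rik and at 97.3% over 75.6% of Gm11800, so their reads may be shared and they are not separate evidence.

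In morulae the lowest pair was Gm2895 (bidirectional promoter lncRNA), whose start lies 317 bases from that of Ndrg1, a stress-response gene, and Gm10461, opposite Yes1, a Src-family kinase gene. Gm2895 was at 0.873 or below in all 6 light morulae and at 3.61 (median) in light 2-cell cells, a difference of -2.15 ± 0.64 (limma, adjusted p = 0.0044). In light blastocysts it had 24.1, 32.1, 6.42, 27.9, 18.4 and 17, a rise over each cleavage stage with a smallest difference of 1.87 ± 0.64 to the 2-cell stage (limma, adjusted p = 0.011, but 0.0654 at most over the alternatives, and not called without light 2-cell 14). The 2-cell cells, at up to 38.9, overlapped these values. Gm10461 was at 0.873 or below in light morulae and at a median of 3.49 in light 8-cell cells (-1.91 ± 0.53, limma, adjusted p = 0.012).

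Between the 2 late light stages, 21 of the 91 members were higher in blastocysts than in morulae and 4 were lower. The backgrounds were 3.31% and 11.2% of genes tested. The 21 included Gm16559 (5.08 ± 0.40, limma, adjusted p = 2.5e-13), Gm12173, Gm12169, Gm2895 and Gm26751. For Gm16559, Gm12173 and Gm12169, which passed the filter on low values only through the blastocysts, the call is a description. The 4 that fell were G430049J08Rik, Gm11800, Gm43011 and Gm37423.

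The 4 members around Dppa1, a gene known for expression in early embryos, are spread over chr11:46524212-46646959. Gm12173 had 1.58 and 4.17 in control blastocysts 1 and 2 and 749 in control blastocyst 3. In the light blastocysts it had 27.2, 21.5, 29.6, 23.4, 16.2 and 21.8, and it was 0 in all light morulae. The 6 light cells lay between the 2 low and the 1 high control cell, and their difference to the highest light cleavage stage was 4.44 ± 0.33 (limma, adjusted p = 2.1e-15). Gm12169, protein coding, had 16.8, 38.6 and 310 in control blastocysts and 4.16 to 54.9 in light blastocysts, and rose in light by 4.29 ± 0.44 (limma, adjusted p = 2.0e-11). Gm12173 and Gm12169 passed the filter on low values only through the light blastocysts, so both calls are a description. Gm4926, a lincRNA, had 2.63, 1.74 and 420 in the controls and 2.88 to 30 in light, but reached 63.4 in a light 2-cell cell and was not called above cleavage. For Gm12173, Gm4926 and Gm12169, control blastocyst 3 held 99.2%, 99% and 84.8% of the summed value of the 3 cells.

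Gm12171, the fourth, aligned to Dppa1 at 90.4% identity over 93.6% of its length. It had 1.05, 6.61 and 26.3 in control blastocysts and no more than 1.47 in light ones. Dppa1 itself had 15.3, 142 and 651 in the control blastocysts and 63.4 to 207 in the light ones, with medians of 0 at the 4-cell, 8-cell and morula stages of both groups. It rose in light blastocysts by 5.78 over the nearest cleavage stage (limma, adjusted p = 5.7e-13). Timd2, the other named gene nearby, a cell-surface receptor gene, did not share the pattern: its mean was 1427 in light morulae and 370 in light blastocysts.

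**Figure D3:**
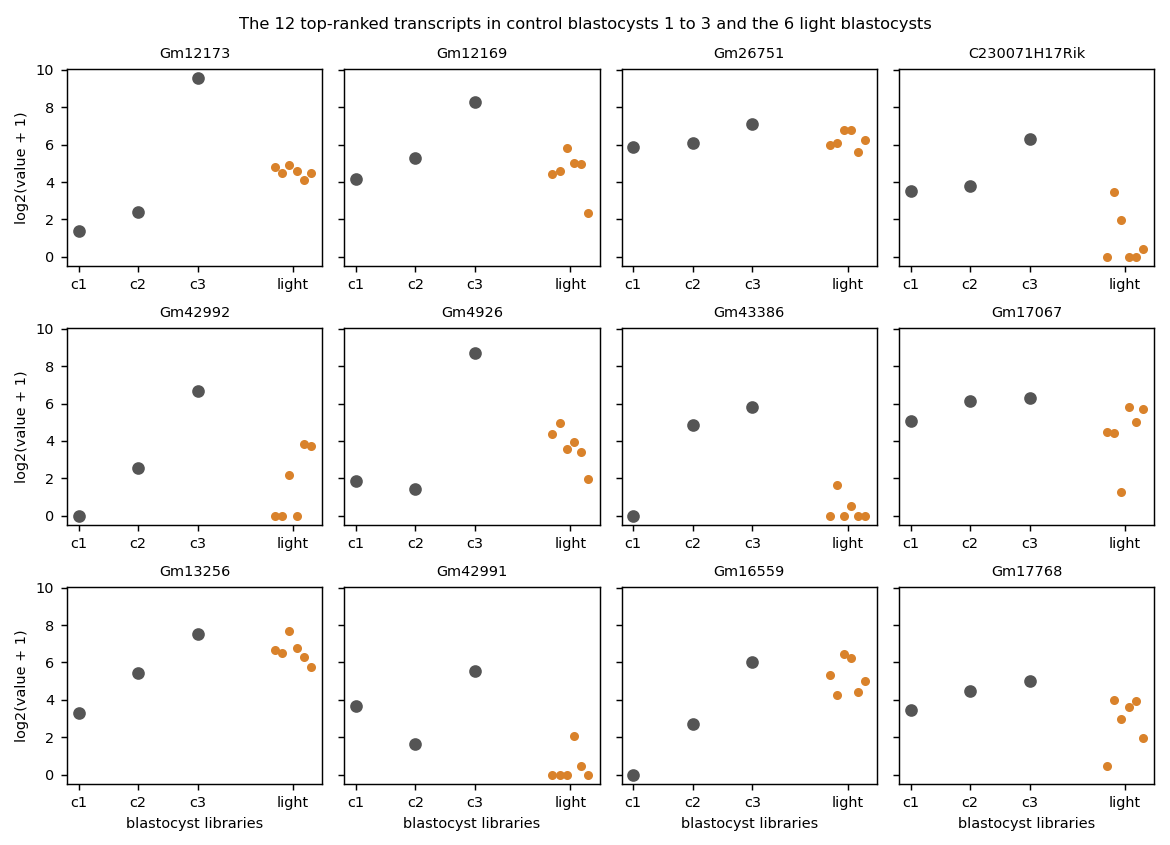
Log2(value + 1) of the 12 top-ranked transcripts in control blastocysts c1, c2 and c3 and in the 6 light blastocysts. For Gm12173, Gm4926 and the Auts2 intron transcripts C230071H17Rik, Gm42992 and Gm42991, c3 lies above c1, c2 and all 6 light cells.

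Gm43386, a TEC transcript with no overlapping gene at chr5:29946718-29950718, had 0, 27.5 and 54.6 in control blastocysts. In light blastocysts it had 0, 2.1, 0, 0.45, 0 and 0 and was too low in the light libraries to be tested between stages.

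The introns of Auts2, a gene named for its link to autism, held 10 members on its own strand within chr5:131882966-132535248, all TEC. They are C230071H17Rik, Gm42992, Gm42991, Gm42993, Gm43019, 2610011E03Rik, Gm42989, Gm43188, Gm43187 and Gm43186. Their summed value was 33.7, 56.4 and 723 in the 3 control blastocysts. In the 6 light blastocysts the sum lay between 12.5 and 44.9, and in the 13 control morulae it was at most 1.17. Control blastocyst 3 was the high cell for each of the 5 members given next.

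C230071H17Rik had 10.5, 12.9 and 79 in control blastocysts and 0, 9.99, 2.85, 0, 0 and 0.32 in light ones. Gm42991 had 11.6, 2.09 and 45.6 in the controls, Gm42992 had 0, 4.87 and 101, and Gm43019 had 0.526, 12.2 and 182. Gm43187 had 0, 0 and 58.4, so all of its control blastocyst value was in 1 cell. In the light libraries 5 of the 10 could be tested, all through their light blastocysts, so the calls of Gm42992, Gm43019, Gm43188 and Gm43186 there are a description. With DESeq2 only Gm43019 of these 4 was called (adjusted p up to 0.25 for Gm42992, 0.27 for Gm43188 and 0.06 for Gm43186). In light morulae Gm43019 had 0, 0, 0.456, 3.73, 0 and 0, and no call was made there for any of the 5.

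Auts2 itself did not follow its introns across the stages. It was highest in 2-cell cells, with means of 309 ± 90.4 (SD, n = 7) in control and 129 ± 27.8 (SD, n = 6) in light, and it had 19.5, 52.5 and 222 in control blastocysts and 27.8 to 43.7 in light ones. Its control blastocyst values ran in the same order over the cells as the summed value of its intronic members. No rise to the light blastocyst was called for Auts2 (-1.83 against the highest cleavage stage). Another pair of intronic TEC transcripts, E230020D15Rik and Gm45073 in Efnb2, an ephrin ligand gene, had 0, 7.65 and 97.6, and 1.05, 12.5 and 52.7, in the control blastocysts. Efnb2 itself had 2.1, 121 and 277 in the same cells, in the same order. E230020D15Rik rose in light blastocysts by 2.49 ± 0.49 (limma, adjusted p = 7.9e-05), while Gm45073 was not called. For Efnb2 no rise to the light blastocyst was called (-1.89 against the highest cleavage stage).

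For 40 members opposite a protein-coding gene, that gene could be followed too, 39 genes in all, and of the 40 members 13 rose in light blastocysts above each cleavage stage. Of the 39 genes, 17 did, against 3.48% of all genes tested. The 17 include Adh1, which passed the filter on low values only through the light blastocysts, and the count was not adjusted for this. The genes were not part of the selection, but where exons overlap, reads of either may be counted for both. All 4245 exonic bases of Gm26751 lie on Nynrin exons. Gm13256 shares 155 bases with Gata3, Gm16559 shares 136 with Adh1, A230005M16Rik shares 617 with Bmyc, and Gm26586 shares 134 with Tpm4, a tropomyosin gene.

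Gm13256 (antisense, chr2:9877256-9878869, plus strand), beside the trophectoderm factor Gata3, had 8.94, 41.7 and 186 in control blastocysts, and Gata3 had 40.5, 248 and 889 in the same cells, in the same order. In light blastocysts Gm13256 had 99.7, 88.8, 204, 108, 77.3 and 52.2 and Gata3 had 406, 507, 729, 397, 331 and 261, with the highest and the lowest value of each in the same cell. Gm13256 rose by 4.19 ± 0.55 (limma, adjusted p = 3.4e-08) and Gata3 by 5.33 (limma, adjusted p = 1.1e-09) over the nearest light cleavage stage. Both also rose in light morulae, Gm13256 by 2.38 ± 0.55 and Gata3 by 3.63. Over 13 control morulae Gm13256 ranged from 0 to 118 with a median of 24.1.

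The neighbours of the other top risers rose too. Nynrin had 104, 150 and 220 in control blastocysts and 70.3 to 188 in light ones, and rose by 5.76 in light. Adh1 had 1.05, 17.4 and 159 in the controls and 57.4 to 285 in light, and rose by 6.62. Like Gm16559, Adh1 passed the filter on low values only through the light blastocysts, so its call is a description. Bmyc rose by 5.63 and Tpm4 by 2.60, each called by limma in the light blastocysts. Gm26586, opposite Tpm4, had 33.7, 72.7 and 105 in control and 35.3 to 94.1 in light blastocysts, a rise of 2.45 ± 0.60 in light (limma, adjusted p = 0.0013), while Gm16091, the other transcript opposite Tpm4, was not called.

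**Figure D4:**
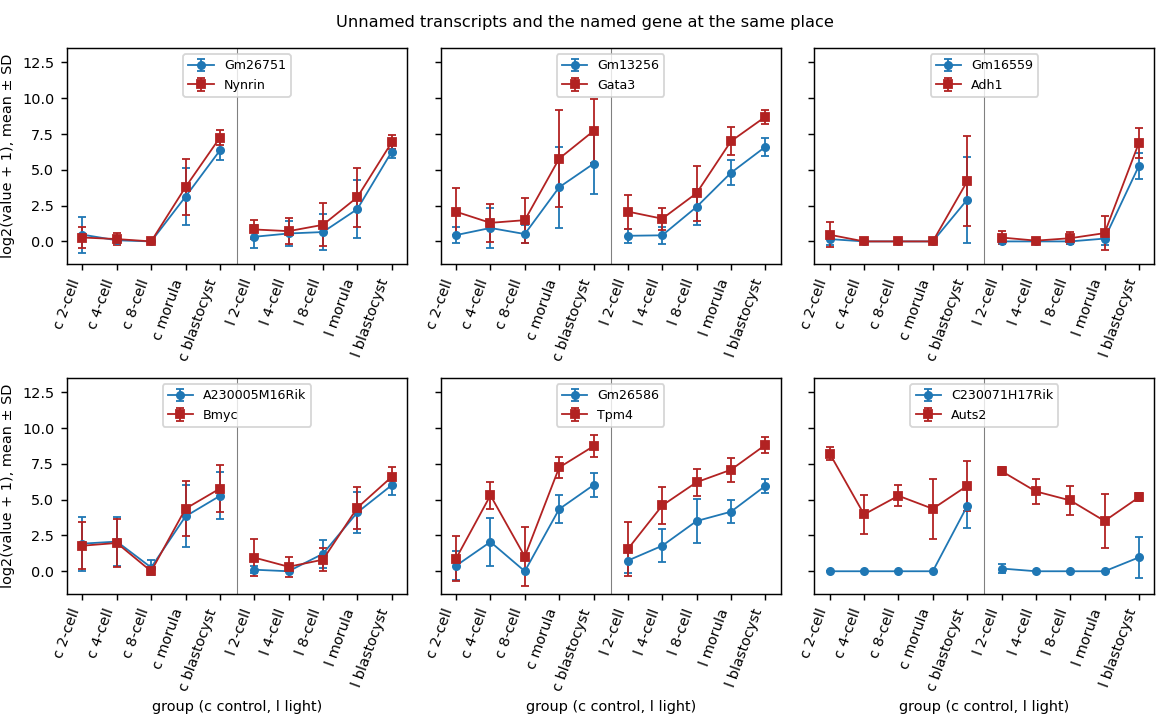
Mean ± SD of log2(value + 1) in the 10 groups for 6 placeholders (circles) and the named gene at the same place (squares), controls left of the line and light right of it. In the first 5 panels both lines climb to the blastocyst, while Auts2 is highest in 2-cell cells and C230071H17Rik is near 0 until the blastocyst.

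Among the 13 morula-peaking members, several are copies of or lie across abundant or histone genes. Gm20628 (antisense, chr3:96267075-96270289), opposite the histone genes Hist2h3b and Hist2h2bb, had 2.83 to 344 and a median of 197 over the 13 control morulae. It had 1.58, 130 and 12.2 in control blastocysts. In light morulae it had 15.2, 56.7, 21.9, 126, 86 and 32.3, and no rise over cleavage was called. Hist2h3b, across from it, had a median of 182 in control morulae and 41.2 in light morulae.

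Gm44394, which GENCODE lists as a 138-base miRNA gene at chr13:23570726-23570863 on the plus strand, lies wholly inside the coding part of Hist1h2ae on the other strand. Its letters are shown because they are the complement of a histone H2A coding stretch, and reads there, with strand not marked, cannot be assigned to a miRNA.
Gm44394: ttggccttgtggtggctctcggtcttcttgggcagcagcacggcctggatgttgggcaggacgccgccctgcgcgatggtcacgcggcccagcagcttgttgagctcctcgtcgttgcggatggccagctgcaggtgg
It had 0 to 71.7 (median 22.6) in control morulae and at most 1.04 in control blastocysts. Hist1h2ae had 0 to 233 (median 59) in control morulae.

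Variation between control morulae differed widely among members. Of the 33 members with a mean of at least 10 there, the lowest coefficients of variation belonged to Gm8399 (0.244), Gm9844 (0.302), Gm12715 (0.363) and Gm12790 (0.400). Gm8399 and Gm12715 are 98.6% and 99.6% identical to Actg1, cytoplasmic actin, and Gm9844 is 99.1% identical to Tmsb10, an actin-binding thymosin. Gm8399 had 5.77 to 15.8 (median 13.4) in control morulae. Both actin copies rose in light morulae and in light blastocysts, by 1.85 and 2.27 for Gm8399 and by 1.57 and 2.49 for Gm12715 on the log2 scale, and Actg1 did so by 2.39 and 3.05. The morula call of Gm12715 was lost with a pseudocount of 0.1 and without any 1 of 8 libraries (limma, adjusted p up to 0.117), namely light 4-cell 1, 6, 7 and 11 and light morula 3, 5, 9 and 12. The highest coefficients were those of 4930550L24Rik (1.68), 2610528J11Rik (1.55), Gm26751 (1.44) and A230005M16Rik (1.18).

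Zinc-finger clusters contributed further members. Gm17067 is 90.1% identical to Zfp975 over 50.8% of its length and Gm2381 90.3% to Zfp976 over 71.7%, both at chr7:42705469-43096419 with Gm17768. Gm17067 had 32.1, 68.2 and 76.4 in control blastocysts and 21, 20.5, 1.43, 54.9, 31.3 and 51.9 in light ones, and rose in light by 2.02 ± 0.75 (limma, adjusted p = 0.029). This call was lost with a pseudocount of 0.1 and without any 1 of light blastocysts 24, 26 and 29 and light 4-cell 7 and 14 (limma, adjusted p up to 0.0901). Gm17768 had 9.99, 21.6 and 30.8 in control and 0.388 to 14.7 in light blastocysts and was not called. Gm10046, a transcribed pseudogene 95.7% identical to Zfp60, was at 0 in all light 4- and 8-cell cells, had 9 to 27.6 in light blastocysts and rose by 3.54 ± 0.44 (limma, adjusted p = 2.7e-09). The 4 members at chr8:20136502-20582771, Gm21811, 6820431F20Rik, 2610005L07Rik and Gm21092, match 1 another at up to 99.7% identity and gave no call in light morulae or blastocysts.

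The 3 X-linked members differed from each other. C430049B03Rik, a processed transcript, had 1.58, 21.6 and 80.9 in control blastocysts and 1.1 to 33.4 in light ones, where it rose by 3.09 ± 0.44 (limma, adjusted p = 2.3e-07). It passed the filter on low values only through the light blastocysts, so this call is a description. 4930550L24Rik had 16.4 to 159 in 7 of the 13 control morulae and 0 in the others, and 104, 11.4, 0, 0, 0 and 0 in the light ones. Gm14661 had 9.47, 6.26 and 26.3 in control blastocysts and at most 1.78 in light blastocysts.

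Values are not divided by transcript length, so their order between genes is not one of molecules. On that scale the highest means in control blastocysts were those of Gm12173, Gm12790, Gm42047 and G430049J08Rik. Gm12790, protein coding at chr4:101967453-101981049, had 183, 282 and 223 there and 24.4 to 98 in control morulae. Gm42047, a lincRNA, had 134, 118 and 266. In control morulae the highest means were those of Gm20628, Gm9844, 1500009L16Rik and Gm12790. 1500009L16Rik, protein coding, was detected in all 13 control morulae, from 25.1 through a median of 37.4 to 166, and had 17.4, 12.5 and 0 in control blastocysts.

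Light was next set against control at each stage. These comparisons use the control libraries that chose the list, so lower values in light morulae and blastocysts and higher values in light cleavage cells are favoured by the choice. The counts and the values below are descriptions, and nothing is read from the shares of all genes printed beside the counts.

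At the 2-cell stage 2 of 57 members tested were higher in light (background 5.53%) and 0 lower (4.96%), and 9 of the 57 (15.8%) had an unadjusted p under 0.05, as did 25.8% of all genes tested. Gm15200, opposite Ostm1, a gene of bone resorption and lysosomes, had 16.7 to 45.2 (median 22.9) in 6 light cells and at most 2.61 in 7 control cells, with no overlap, as for 2 of the 57 members (background 4.15%). The difference was 3.48 ± 0.74 (limma, adjusted p = 0.0022), with means of 26.6 ± 10.1 (SD, n = 6) and 1.55 ± 0.94 (SD, n = 7). Ostm1, whose exons cover all 410 exonic bases of Gm15200, had 70.1 to 201 in light and 2.61 to 57 in control cells. Gm11800, 0 in all control 2-cell cells, had 0.567 to 5.03 in light, a call lost without any 1 of 8 libraries (limma, adjusted p up to 0.0681), namely control 8, 9, 10, 11 and 24 and light 10, 12 and 14.

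At the 4-cell stage 3 of 67 were higher (background 1.12%) and 1 lower (0.333%). G430049J08Rik had 35.8 to 243 in light and 0 to 108 in control cells, with overlap, a difference of 3.89 ± 0.83 (limma, adjusted p = 0.018). Gm13128, 99.3% identical to Pramef17, and Gm11800 were the other 2, by 3.16 ± 0.82 and 2.99 ± 0.77. Gm9844 was lower, with means of 1.16 in light and 16.0 in control. Without control 4-cell 5 none of the 4 was called by limma.

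At the 8-cell stage 9 of 59 were higher (background 5.91%) and 0 lower (3.3%), and 24 of the 59 (40.7%) had an unadjusted p under 0.05, as did 25.3% of all genes tested. Gm26586 was at 0 in all 4 control cells and had 0 to 24.9 (median 14.9) in 8 light cells, a difference of 3.51 ± 0.83 (limma, adjusted p = 0.0089), and Tpm4 opposite it rose by 5.19 ± 0.70 (limma, adjusted p = 5.9e-05). 5430403G16Rik rose by 3.18 ± 0.77 and, like Gm26586, was at 0 in every control cell. G430049J08Rik had 40.3 to 175 in light and 5.8 to 29.6 in control, with no overlap, as for 5 of the 59 members (background 5.61%), a difference of 3.07 ± 0.47 (limma, adjusted p = 0.0002). The others were Gm42047, 4930522L14Rik, 2210409E12Rik, 1010001N08Rik, 1500009L16Rik and Gm16982. 1010001N08Rik, which starts 503 bases from Gata6, a primitive endoderm factor, was at 0 in all control cells and at 1.27 to 15.9 in light, and Gata6 rose by 3.83 ± 0.60 (limma, adjusted p = 0.00028).

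In morulae 3 of 79 were higher (background 0.355%) and 4 lower (0.821%). The 4 that were lower are copies of abundant mRNAs or lie on a histone gene. Gm9844 had 7.75 to 18.7 in the 6 light cells and 29.3 to 94.9 in the 13 control cells, without overlap, as for 3 of the 79 members (background 0.552%), a difference of -2.35 ± 0.39 (limma, adjusted p = 0.0014), and Tmsb10 was also lower, by -1.49 ± 0.27 (limma, adjusted p = 0.003). Gm6548, 96.7% identical to Eef1a1, had 0.394 to 1.26 against 4.88 to 33.7 (-2.78 ± 0.59, limma, adjusted p = 0.012), while Eef1a1, a translation elongation factor gene, differed by -0.98 ± 0.18. Gm43712, 98.9% identical to Eef1b2, another elongation factor gene, had 0 to 1.87 against 3.66 to 39 (-3.06 ± 0.64, limma, adjusted p = 0.011). Eef1b2 itself, at -0.51 ± 0.38, did not pass (limma, adjusted p = 0.54). Gm44394 (-3.08 ± 0.72) moved with Hist1h2ae (-3.51 ± 0.80, limma, adjusted p = 0.023), but its call was lost without light morula 1, 5 or 12 (limma, adjusted p up to 0.0711). The 3 that were higher, Gm16136 opposite Grhl2, an epithelial transcription factor gene, Gm16984 and Gm14412, stayed low in both groups, with light means of 6.80, 4.98 and 4.06. The call of Gm16136 was lost with edgeR and with DESeq2, and that of Gm16984 without light morula 3. That of Gm14412 was lost with edgeR, with DESeq2 and without light morula 3, 6 or 12.

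In blastocysts 0 of 97 were higher (background 0.353%) and 17 lower (4.98%), and 42 of the 97 (43.3%) had an unadjusted p under 0.05, as did 23.3% of all genes tested. For 24 of the 97 the groups stood wholly apart, as they did for 12.5% of all genes tested. The median difference was -0.64 over all genes and -1.39 over the members tested, and on RPM without CT010467.1 and Gm42418 these were -0.03 and -0.75, with 5 members lower and 1 higher. With 3 control cells, single cells decided the count. It was 11 lower without control blastocyst 1, 2 lower and 1 higher without control blastocyst 2, and 7 lower and 3 higher without control blastocyst 3. It was 10 and 11 lower without light blastocysts 24 and 26. The difference was largest for G430049J08Rik (-4.20 ± 0.88, limma, adjusted p = 0.011), followed by Gm11800 (-3.61 ± 0.80) and C230071H17Rik (-3.58 ± 0.89). Without control blastocyst 2 none of these 3 was called by limma, with an adjusted p of 0.0814 for G430049J08Rik and 0.137 for Gm11800. The call of C230071H17Rik was lost in 9 of 15 alternatives, among them edgeR (adjusted p = 0.145). Others were a pseudocount of 0.1, no filter, RPM, median-of-ratios factors, and fits without control blastocyst 3 or light blastocyst 24 or 26. That of Gm11800 was also lost with RPM and with median-of-ratios factors.

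2 of the 17, not named by the rule and picked here after their values were seen, had no read in any of the 6 light blastocysts. Gm14540, opposite Chchd3, a mitochondrial gene, had 9.99, 10.4 and 12.2 in the controls, and Gm37423, within Dennd1b, had 5.79, 8.7 and 16.7. Gm12790, at 183 to 282 in control, had 46.1 to 115 in light, and the groups did not overlap (-1.58 ± 0.40, limma, adjusted p = 0.026), a call lost without control blastocyst 2 or 3 or light blastocyst 24 and on RPM. Gm14412, which was higher in light morulae, was lower in light blastocysts, at 0 to 8.56 against 10.5 to 32.7. This blastocyst call was lost in 7 of 16 alternatives, among them RPM, edgeR, DESeq2 and the fit without control blastocyst 2. The summed inner cell mass markers given at the start also differed between the blastocyst groups, but they overlapped on RPM. The trophectoderm sums stood apart on RPM and overlapped on the authors' values. The part of either marker list in these differences was not tested.

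**Figure D5:**
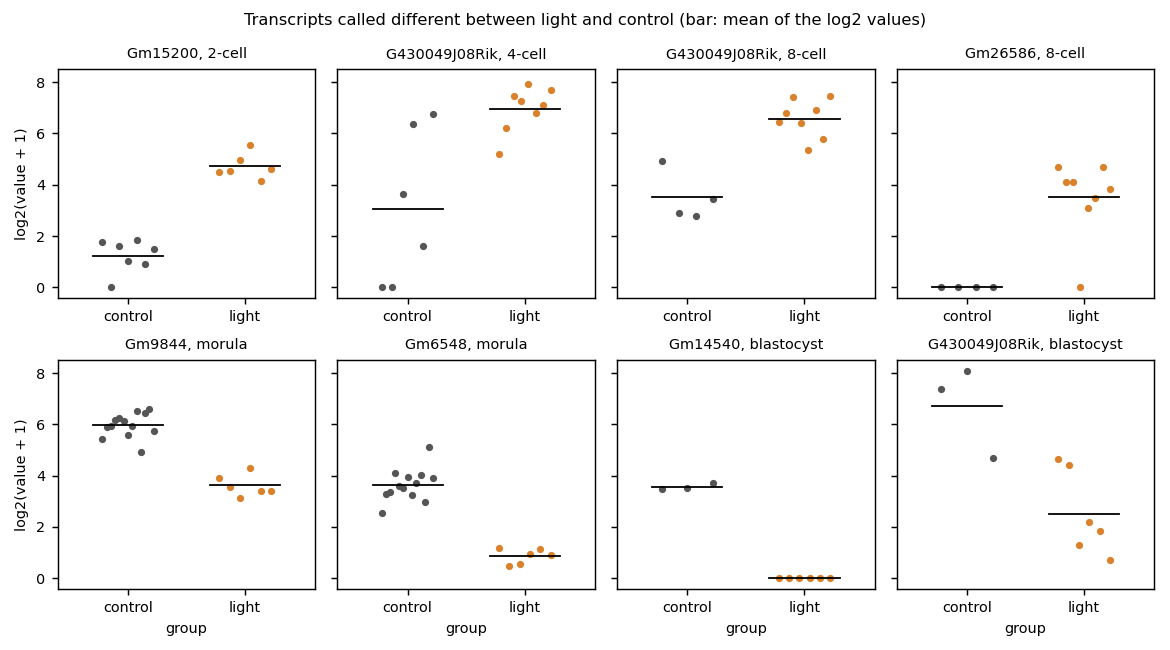
Log2(value + 1) in single control (grey) and light (orange) cells for 8 pairs of transcript and stage, with the mean of the log2 values as a bar. G430049J08Rik is higher in light at the 4- and 8-cell stages and lower in light blastocysts, and Gm9844 and Gm6548 are lower in all 6 light morulae than in all 13 control morulae.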

How the data were processed

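Single-cell SMART-seq2 libraries were analysed from 1 deposited table. The labels name HISAT2, HTSeq 0.9.1 and mm9. The authors deposited a signal per gene that equals whole read counts divided by a library size factor. At least 99.97% of values per library were whole reads within 0.01, although the methods name RPKM. The strand setting of the counting is not given in the sources used here. Groups came from the labels, and the closest libraries of each group differed by more than sampling noise (lowest chi-square per degree of freedom 7.39), so none was merged.

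Members and lists were chosen with earlier results of these data known. limma 3.58.1 (lmFit, eBayes with trend; R 4.3.3) was run on log2(value + 1) on genes that exceeded 1 in 3 or more compared libraries, in 1 fit per stage and 1 fit of the 34 light libraries, with calls at adjusted p below 0.05 and at least 2-fold. The script was tested on simulated data. Alternatives included edgeR 4.0.16 and DESeq2 1.42.0 on the recovered reads. Coordinates and classes are from GENCODE M21 (GRCm38), matched by symbol. Similarity used blastn. Named members are ranks 1 to 12, the edge of the list, the largest and smallest differences, up to 3 calls each way per comparison, the highest means, X-linked members and extremes of variation. Members of the groups at 1 place or of like sequence, and their neighbours, were named after their values were seen.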

Additional observations from a re-analysis of the deposited data

Results flagged for a closer look

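The summed value of the 100 members by stage, and the 12 top-ranked transcripts in light morulae and in light blastocysts, gave 27 groups of values that were not all alike. In 8 of the 27, each a group of 6 light cells, 1 cell stood far from the other 5. The nominal rate of about 1 in 20 groups does not hold where most cells are at 0, and the groups share cells. No excess over chance is therefore read from this count. In light morulae the cell apart was at 47.2 for Gm26751, at 75.6 for Gm13256, at 1.26 for Gm16559 and at 0.394 for Gm43386. For Gm16559 and Gm43386 the other 5 morulae were at 0, so that cell is set apart by few reads. In light blastocysts it was at 204 for Gm13256, at 9.99 for C230071H17Rik, at 3.15 for Gm42991 and at 2.10 for Gm43386. Most of the other light blastocysts were at 0 for the last 3.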

How the results depend on the processing

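Control and light counts of members called moved with the settings. At the 2-cell stage the count of 2 became 1 with a mean value above 5 and 4 with RPM computed without CT010467.1 and Gm42418, with median-of-ratios factors and with edgeR. At the 4-cell stage the count of 4 became 1 with a pseudocount of 0.1, 2 with DESeq2, and 0 without a filter (limma, 13 members at an unadjusted p under 0.05) and with edgeR (11 such members). At the 8-cell stage 9 became 14 with DESeq2. In blastocysts 17 became 7 with a pseudocount of 0.1, without a filter and with a mean value above 5, 6 with RPM, 5 with median-of-ratios factors and with edgeR, and 8 with DESeq2. The rise in light blastocysts was called for 18 members with a mean value above 5, where 44 were tested, and for 49, 52 and 48 with RPM, median-of-ratios factors and DESeq2. No share of all genes called is given for any alternative setting, so nothing about the members is read from these shifts. Light blastocysts against morulae gave 11 with a mean value above 5 in place of 25. The selection kept 60 and 63 of its 100 members under these scalings, and 57 and 56 with a minimum mean of 5 and 20.

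Without 1 library at a time, the counts ran from 1 to 5 (2-cell, 1 without control 8, 9, 10, 11 or 24 or light 10, 4 without control 12 and 5 without light 16), 0 to 5 (4-cell, 0 without control 5, and 1 or 2 without control 2 or 6 or any 1 light library), 6 to 11 (8-cell), 5 to 9 (morula) and 3 to 17 (blastocyst), from 8 to 12 and 27 to 33 for the rises in light morulae and blastocysts, from 21 to 26 between them, and from 70 to 99 for members kept. Calls of single members, set under each alternative, kept their direction and side of the threshold 2192 times and lost significance 285 times, with 0 reversals. The causes of these shifts were not tested. With 3 control blastocysts and 318177 reads outside the 2 dominant features in the shallowest library, low members cannot be ranked.

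Same-numbered libraries did not deviate together (correlations from -0.087 to 0.069). With the replicate number as a block the counts were 2 (2-cell), 4 (4-cell) and 7 (morula), and 11, 31 and 25 in the light libraries. No block could be fitted at the 8-cell and blastocyst stages, where the groups share no numbers.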
